A study of Pistacia chinensis with 8 samples.

Results

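In inflorescence buds of Chinese pistache (Pistacia chinensis), 7 predicted miRNAs differed in presence or level between strains or between sexual systems. The 7 rows, novel_33, novel_56, novel_30, novel_118, novel_40, novel_106 and novel_36, were selected on exactly that difference, so the levels by strain and sexual system given below are a description and carry no test. They are 7 of the 86 miRNAs that the authors predicted from their reads and numbered, in a table of 471 miRNA rows.

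The libraries were made from inflorescence buds of 4 sex types at 2 stages of floral development, with 1 library for each of the 8 combinations. Bisexual and monoecious female buds came from strain T2, whose flowers are carried under a monoecious system, male buds came from strain X1 and female buds from strain C1, and X1 and C1 represent the dioecious system. Each sex type was sampled at stage C and at stage B, and the labels give no allele, treatment or age. Strain and sexual system cannot be told apart, because T2 is the only monoecious strain and each dioecious sex is represented by 1 strain. Whether a library came from 1 tree or from several is not stated.

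A plant miRNA is cut from a hairpin precursor by a DICER-LIKE enzyme, loaded into an ARGONAUTE protein, and guides that protein to messenger RNAs with a nearly complementary site, which are cleaved or translated less. Conserved miRNA families are shared by distant species and many of them act on transcription factors of meristem and flower development. Predicted miRNAs are found by folding the genomic or transcript sequence around a cluster of reads. They often have low counts and no conserved relative, and neither targets nor sequences of these 7 were used here, so no role is stated for any of them.

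The reads on miRNA rows numbered 419169 to 512244 in the libraries of stage C and 821235 to 1159015 in 3 libraries of stage B. The bisexual library of stage B was shallow, with 160129 reads, and it stood apart. Spearman correlations over all rows lay at 0.78 to 0.84 between it and the remaining libraries of stage B, whereas the other pairs of libraries of the same stage had 0.90 to 0.94. Levels are given as CPM, read counts scaled to a common library size with TMM factors, which set that size by the bulk of rows. A count of 3 reads, used as the floor wherever a library held 0 reads, corresponded to 18.4 CPM in the bisexual stage B library and to 3.77 to 5.55 CPM in the other 7. Folds given as at least a value rest on that floor and are not 95% limits. The exact limits were lower. For novel_33 in monoecious female against male buds of stage C the limit was 179-fold, where the floor gave 221-fold. Intervals of counts and ratios are exact 95% intervals. They hold counting error and no spread between trees, and reads counted with no molecular identifiers may repeat a molecule. In RNA from whole buds, fewer cells of a type and less RNA per cell cannot be told apart.

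The 7 rows together took 2.13 to 5.50% of the reads on predicted miRNAs in a library. By reads summed over the 8 libraries, novel_33 (1550 reads), novel_118 (1532) and novel_40 (1016) stood 17th, 18th and 22nd of the 86, novel_30 (381) and novel_56 (236) stood 30th and 36th, and novel_106 (70) and novel_36 (50) stood 51st and 58th. None of them shared its counts with another row, within 5% or 2 reads in every library, so none appeared to be a second name of another row. All 7 reached 10 reads in 2 or more libraries, the filter that left 248 rows for the tests. Of the 7, 4 passed that filter only through the groups in which they were high. These groups were the dioecious libraries for novel_33, the male libraries for novel_106, the stage B libraries for novel_56 and the T2 libraries of stage C for novel_36.

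**Figure D1:**
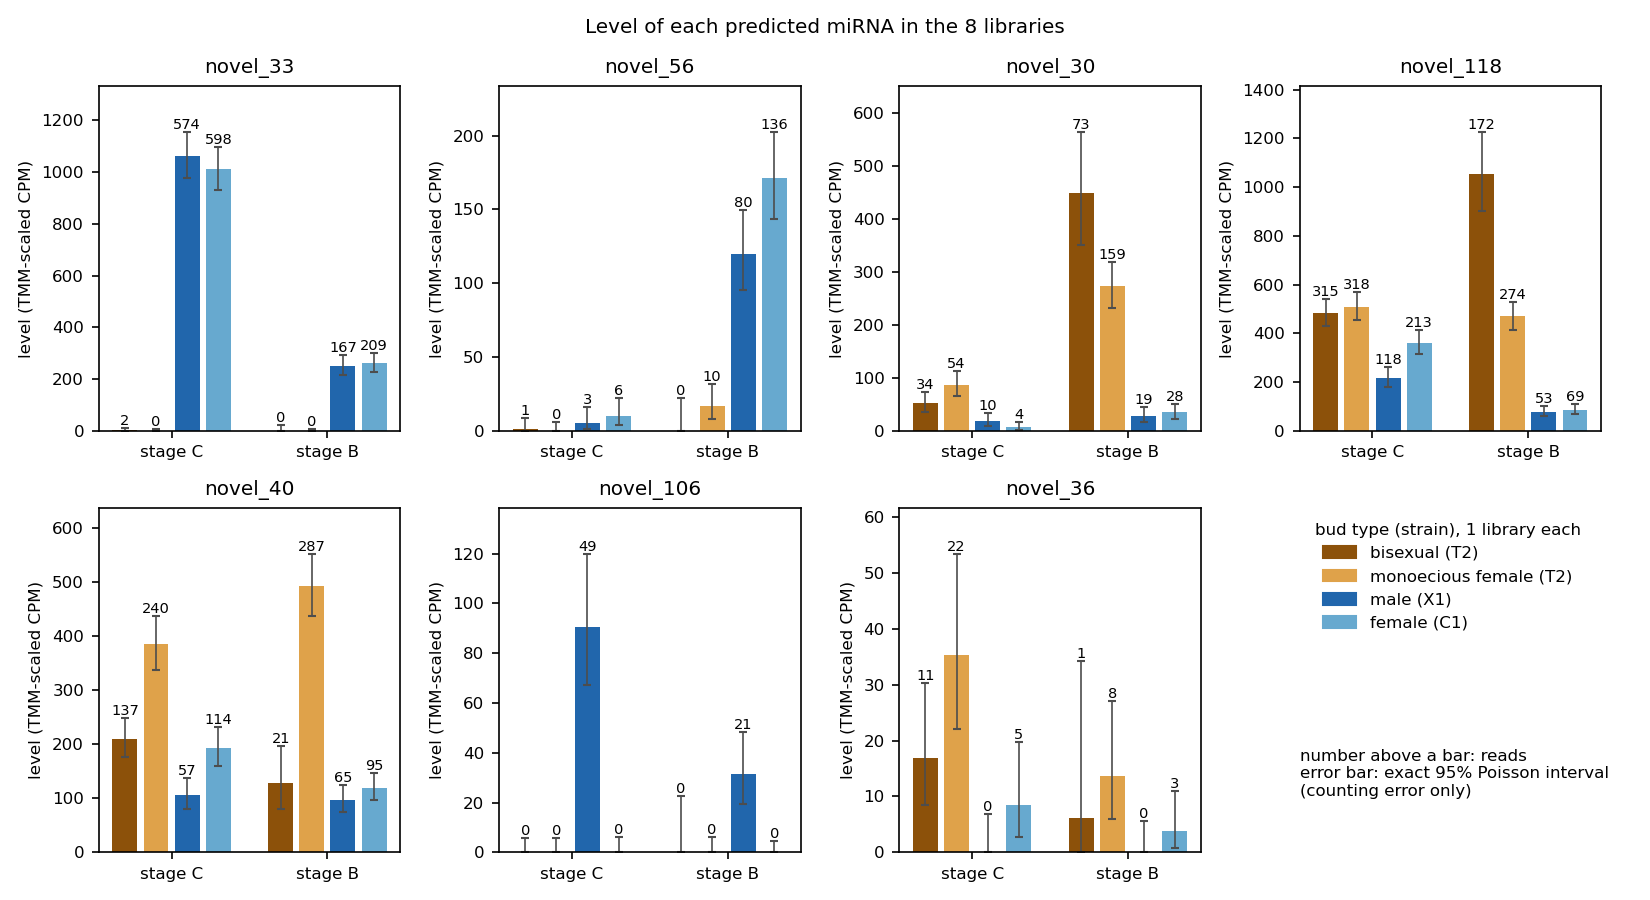
Level of each of the 7 predicted miRNAs in TMM-scaled CPM (y axis, a separate scale in each panel) in the bisexual, monoecious female, male and female library of stage C and of stage B. The number above a bar is its read count and the error bar is the exact 95% Poisson interval of that count. novel_33 stands at 251 to 1063 CPM in the 4 dioecious libraries against at most 3.07 CPM in the T2 libraries, and novel_106 has a bar in the 2 male libraries alone.

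The row with the widest gap was novel_33, present in dioecious buds of both sexes and nearly absent from T2. At stage C it had 2 reads in bisexual and 0 in monoecious female buds, against 574 in male and 598 in female buds, which is 3.07 and 0 CPM against 1063 and 1012 CPM. At stage B it had 0 reads in both T2 libraries, against 167 reads (251 CPM) in male and 209 reads (263 CPM) in female buds. The T2 and dioecious libraries therefore did not overlap at either stage. In male and female buds of stage C it was the 9th most abundant of the 86 predicted miRNAs, and at stage B the 16th and 15th.

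The depth of the T2 libraries sets how wide that gap can be shown to be. At stage C the bisexual level was 0.00289 times the male level (interval 0.000349 to 0.0105) and 0.00304 times the female level (0.000367 to 0.0110). With a floor of 3 reads per library, the monoecious female level at stage C was at least 221-fold lower than the male and at least 210.5-fold lower than the female level. At stage B it was at least 48.8-fold lower than the male and at least 51.1-fold lower than the female level. In the shallow bisexual library of stage B the bounds were 13.6-fold and 14.3-fold for the same pairs. The 2 reads in bisexual buds of stage C lay below the floor, so they do not separate a trace level from none.

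Between the dioecious sexes novel_33 showed no difference beyond counting error. The male level was 1.05 times the female level at stage C (0.935 to 1.18) and 0.954 times at stage B (0.774 to 1.17), and both intervals include 1. It was the 1 row of the 248 in which every T2 library was at least 4 times below every dioecious library. The row most like it over the 8 libraries, by Pearson's correlation of log2(CPM + 5), was ppe-miR399a (r = 0.84), of a family that acts on the PHO2 regulator of phosphate uptake. That row had 4, 7, 1 and 17 reads in T2 libraries and 31 to 100 reads in dioecious libraries, so it was low but present in T2. The second was novel_32 (r = 0.72), with 0 to 6 reads in T2 libraries and 4 to 22 reads in dioecious libraries. Such correlations describe 8 libraries that share depth and stage, and no p is attached to them.

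novel_56 also belonged to dioecious buds, and it was seen mainly at stage B. At stage B it had 0 reads in bisexual and 10 reads (17.1 CPM) in monoecious female buds, against 80 reads (120.1 CPM) in male and 136 reads (171 CPM) in female buds. At stage C it had 1 and 0 reads in the same T2 bud types, against 3 reads (5.55 CPM) in male and 6 reads (10.2 CPM) in female buds. The groups did not overlap at either stage, but at stage C they differed by a few reads.

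At stage B the monoecious female level of novel_56 was 0.143 times the male level (0.0659 to 0.276) and 0.100 times the female level (0.0470 to 0.190). The bisexual level was at least 6.53-fold below the male and at least 9.30-fold below the female level. At stage C the T2 libraries pooled were at 0.0986 times the dioecious libraries pooled, from 1 against 9 reads (0.00225 to 0.711). Between the dioecious sexes novel_56 was lower in male than in female buds at stage B, at 0.702 times (0.526 to 0.932) with TMM factors, but with total counts alone the interval included 1, at 0.793 times (0.594 to 1.05). At stage C the ratio of 0.547 rested on 3 and 6 reads (0.0885 to 2.56).

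The rows most like novel_56 were aly-miR165a-3p and ath-miR165a-3p (r = 0.97 each), 2 names that held the same counts. Their family acts on HD-ZIP III genes of meristem and organ polarity. They differed from novel_56 in being abundant everywhere, at 208 to 434 CPM in T2 and 289 to 746 CPM in dioecious libraries.

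The opposite pattern, with higher levels in T2, was seen in novel_30, novel_118 and novel_40, and novel_30 was the furthest apart. At stage C it had 34 reads (52.2 CPM) in bisexual and 54 reads (86.5 CPM) in monoecious female buds, against 10 reads (18.5 CPM) in male and 4 reads (6.77 CPM) in female buds. The counts at stage B were 73 reads (448 CPM) and 159 reads (272 CPM) in the same T2 bud types, against 19 reads (28.5 CPM) in male and 28 reads (35.2 CPM) in female buds. Every T2 library was above every dioecious library, across stages as well as within them.

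The 4 ratios of a T2 to a dioecious library of the same stage ran from 2.82 to 12.8 for novel_30 at stage C and from 7.74 to 15.7 at stage B. The smallest of them was 2.82 (1.36 to 6.40) at stage C, bisexual over male, and 7.74 (5.16 to 12.0) at stage B, monoecious female over female. Without the bisexual libraries the smaller ratio at stage C was 4.67 (2.36 to 10.3). Male and female buds did not differ beyond counting error, with male over female at 2.74 (0.789 to 11.9) at stage C and 0.810 (0.428 to 1.50) at stage B. Its likest rows were novel_14 (r = 0.90), at 21.5 to 55.2 CPM in T2 and 8.46 to 31.5 CPM in dioecious libraries, and aly-miR172e-3p (r = 0.88), whose family acts on AP2-like genes of flowering and floral organs. This miR172 row ran at 30.7 to 79.7 CPM in T2 and 25.9 to 37.7 CPM in dioecious libraries.

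novel_118 was read in every library and was higher in T2 at both stages. At stage B it had 172 reads (1055 CPM) in bisexual and 274 reads (469.6 CPM) in monoecious female buds, against 53 reads (79.6 CPM) in male and 69 reads (86.8 CPM) in female buds. At stage C it had 315 reads (484 CPM) and 318 reads (509.6 CPM) in the same T2 bud types, against 118 reads (218 CPM) in male and 213 reads (360.4 CPM) in female buds. The T2 libraries lay above the dioecious libraries at each stage and across stages.

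For novel_118 the ratios of T2 to dioecious libraries ran from 5.41 to 13.3 at stage B and from 1.34 to 2.33 at stage C. The smallest was 5.41 (4.14 to 7.15) at stage B, monoecious female over female, and 1.34 (1.12 to 1.60) at stage C, bisexual over female. Male buds were below female buds at stage C, at 0.606 times (0.480 to 0.763), and at stage B the ratio was 0.917 (0.629 to 1.33). With total counts alone in place of TMM factors its T2 libraries still lay above the dioecious libraries within each stage, but no longer across stages. The rows most like it were novel_81 (r = 0.89), with 6 to 10 reads in T2 and 1 to 12 reads in dioecious libraries, and ath-miR403-3p (r = 0.88), whose family acts on AGO2 and which had 230 to 1190 CPM in T2 and 70.4 to 582 CPM in dioecious libraries.

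novel_40 was higher in T2 mainly through the monoecious female buds. At stage C it had 137 reads (210.4 CPM) in bisexual and 240 reads (385 CPM) in monoecious female buds, against 57 reads (106 CPM) in male and 114 reads (193 CPM) in female buds. The stage B libraries held 21 reads (129 CPM) and 287 reads (492 CPM) in the same T2 bud types, against 65 reads (97.6 CPM) in male and 95 reads (119 CPM) in female buds. The order of the groups held at both stages, but the bisexual and female libraries were next to each other at both.

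Bisexual over female was 1.09 (0.845 to 1.41) at stage C and 1.08 (0.638 to 1.74) at stage B for novel_40, so these neighbours did not differ beyond counting error. Bisexual over male was 1.99 (1.45 to 2.77) at stage C and 1.32 (0.766 to 2.19) at stage B, where the interval includes 1. The stage B ratio was 1.73 with total counts alone, and its interval (1.01 to 2.87) did not include 1. Monoecious female over female was 1.99 (1.59 to 2.51) at stage C and 4.12 (3.25 to 5.25) at stage B. Monoecious female over male was 3.64 (2.72 to 4.95) at stage C and 5.04 (3.84 to 6.70) at stage B. Within the dioecious system, male over female was 0.547 (0.391 to 0.758) at stage C. At stage B male over female was 0.817 (0.586 to 1.13), and the interval includes 1. cme-miR858 and ppe-miR858, 2 names with the same counts, were most like it (r = 0.90 each). Their family acts on MYB genes, and they had 42.9 to 206 CPM in T2 and 54.1 to 89.7 CPM in dioecious libraries.

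**Figure D2:**
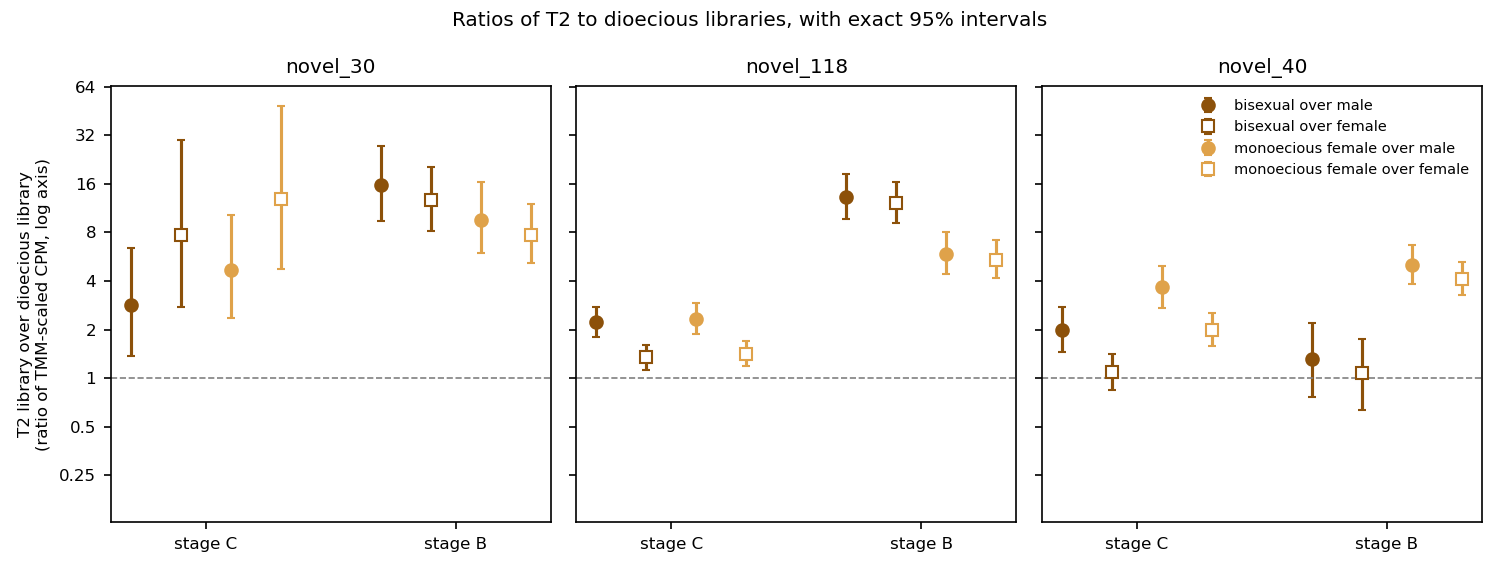
Ratio of each T2 library to each dioecious library of the same stage (y axis, log scale, ratio of TMM-scaled CPM) for novel_30, novel_118 and novel_40, with exact 95% intervals of counting error. The 8 ratios of novel_30 and of novel_118 lie above 1 with their intervals, while 3 ratios of novel_40 have intervals that include 1, bisexual over female at both stages (1.09 and 1.08) and bisexual over male at stage B (1.32).

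The male strain X1 was the only strain with reads of novel_106 and the only strain with 0 reads of novel_36 in its libraries. X1 is also the only male strain, so strain and male sex cannot be told apart. novel_106 had 49 reads (90.7 CPM) at stage C and 21 reads (31.5 CPM) at stage B in male buds, while all 6 libraries of C1 and T2 held 0. With the floor of 3 reads per library, the male level at stage C was at least 19.7-fold higher than the bisexual, at least 18.9-fold higher than the monoecious female and at least 17.9-fold higher than the female level. At stage B the bounds were 6.13-fold against monoecious female and 8.36-fold against female buds. Against the bisexual library of stage B the bound was 1.71-fold, so that library could not have shown a level much below the male one. Female buds of C1 lacked reads too, which sets novel_106 apart from novel_33 and novel_56, the rows present in both dioecious strains. The rows most like it were novel_22 (r = 0.82), at 698 and 1060 CPM in male and 319 to 576 CPM in the other libraries, and novel_32 (r = 0.72), at 13.5 and 40.7 CPM in male and 0 to 18.6 CPM in the other libraries.

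novel_36 was the reverse, with 0 reads in male buds at both stages and reads in every other library. At stage C it had 11 reads (16.9 CPM) in bisexual and 22 reads (35.3 CPM) in monoecious female buds, against 0 in male and 5 reads (8.46 CPM) in female buds. Stage B gave 1 read and 8 reads (13.7 CPM) in the same T2 bud types, against 0 in male and 3 reads (3.77 CPM) in female buds. The counts are the lowest of the 7 and 2 of the 6 libraries with reads held at most 3.

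Male buds were at least 3.67-fold below the other 3 libraries pooled at stage C for novel_36 and at least 1.73-fold below at stage B, with the floor of 3 reads in the male library. Against female buds alone the floor gave 1.52-fold at stage C, from 0 against 5 reads. The exact interval of that ratio (0 to 1.19) includes 1, so no difference beyond counting error was shown. At stage B both libraries lay at or under the floor. In T2 the level was also higher than in C1 and X1 pooled, at 5.85 times (2.27 to 19.2) at stage C and 5.87 times (1.47 to 33.7) at stage B. Monoecious female over female alone was 4.17 (1.54 to 14.1) at stage C, and 3.63 (0.872 to 21.3) at stage B, where the interval includes 1. Its likest row was novel_40 (r = 0.85), another of the 7, and then novel_69 (r = 0.69), with 0 and 1 reads in male and 3 to 15 reads elsewhere.

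The share of all rows with such patterns gives the background of the choice, from which nothing is read about the 7. Both T2 libraries were above both dioecious libraries at both stages in 27 of the 248 rows (10.9%), among them novel_30, novel_118, novel_40 and novel_36. novel_36 is counted there at stage B through 1 read (6.13 CPM) in bisexual against 3 reads (3.77 CPM) in female buds, both at or under the floor. Both T2 libraries were below at both stages in 11 rows (4.44%), among them novel_33 and novel_56. All T2 libraries were above all dioecious libraries, across stages, in 4 rows (1.61%), among them novel_30 and novel_118. All were below in 4 rows (1.61%), among them novel_33. With total counts alone 11 rows (4.44%) were above and 6 (2.42%) below across stages, and novel_118 was not among them. Reads in X1 alone were found in 1 row (0.403%), novel_106, and 0 reads in X1 with reads in every other library in 1 row (0.403%), novel_36. X1 was below the other strains at both stages in 17 rows (6.85%), among them novel_36, novel_118 and novel_40. It was above them in 14 rows (5.65%), among them novel_106. With total counts alone these counts were 15 and 23, novel_118 was no longer below, and novel_33 was also above. Without the bisexual library of stage B, T2 was above at both stages in 41 rows and below in 16. Without both bisexual libraries these counts were 71 and 23. The same 6 of the 7 were among them in both cases.

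The log2 ratio of the mean T2 level to the mean dioecious level, with 5 CPM added, places the 7 against the other rows. The 7 were chosen on differences of strain or sexual system, so these places describe the choice and carry no test. Some of the 7 lay in the tails and others did not. At stage C the middle 90 percent of the 248 rows lay between -0.81 and 0.90. novel_30 (2.08) and novel_36 (1.75) had the 2 highest values, and novel_33 (-7.32) and novel_106 (-3.33) the 2 lowest. At stage B the same limits were -1.37 and 3.09, and novel_30 at 3.31 was 8th and novel_118 at 3.12 was 11th from the top. novel_36 at 1.12 and novel_40 at 1.47 stood 47th and 37th there, inside the bulk. With the monoecious female library alone for T2, the limits at stage B were -1.16 and 1.70, and novel_30 (2.91), novel_118 (2.43) and novel_40 (2.13) stood 1st, 5th and 8th. There novel_36 (1.44) was 20th and stayed inside the limits.

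**Figure D3:**
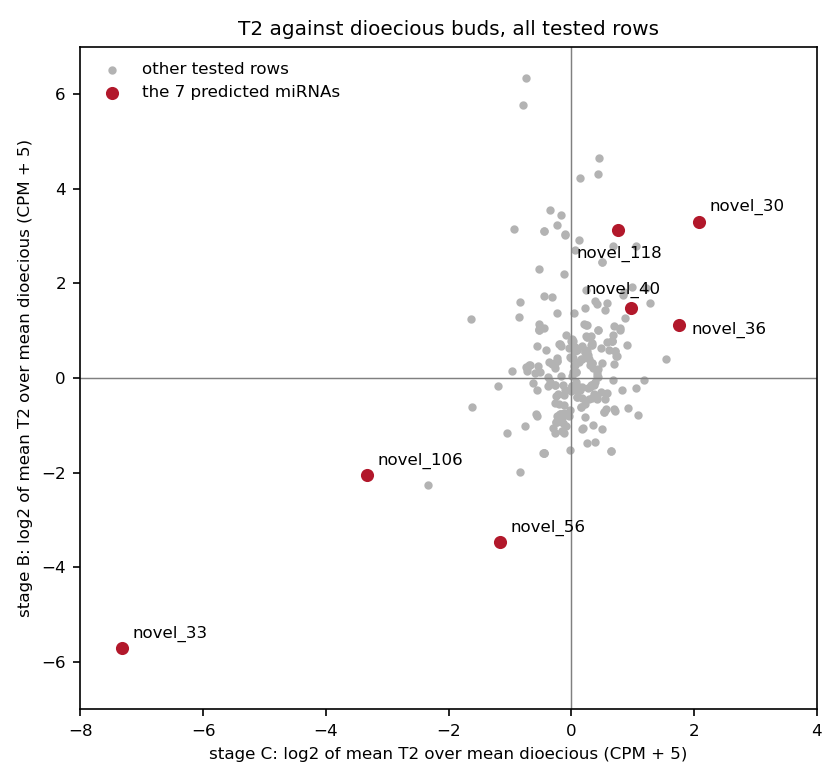
Log2 ratio of the mean T2 level to the mean dioecious level (CPM + 5) at stage C (x axis) and stage B (y axis) for the 248 tested rows, with the 7 predicted miRNAs in red. novel_33 lies lowest on both axes, at -7.32 and -5.71, and novel_30 lies highest at stage C, at 2.08.

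The change between stages was not used to choose the rows and could be tested. Of the 7, novel_33 was higher at stage C than at stage B and novel_30 was lower. novel_56 and novel_36 entered the test only through the stage at which they were high, so their stage values are a description. The test was edgeR's quasi-likelihood F-test in a model of stage and sex type, with Benjamini-Hochberg adjustment over all 248 rows. With 1 library per group the spread in it is the sex type by stage interaction, not a spread between trees. Over all rows 31 (12.5%) were called higher and 16 (6.45%) lower at stage C, and over the other 51 predicted miRNAs tested 9 were higher and 2 lower. The median log2 change was 0.63 over the 7, with novel_56 and novel_36 among them, 0.50 over the other predicted miRNAs and 0.18 over all rows. The median over all rows was 0.87 with total counts alone, and stage ratios were then higher in every bud type.

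novel_33 had a log2 stage change of 2.02 (SE 0.53, edgeR adjusted p = 0.0468). Its reads were in dioecious buds, with stage C over stage B at 4.24 in male (3.56 to 5.07) and 3.85 in female buds (3.28 to 4.53), while both T2 bud types lay at or under the floor at both stages. Scaled by total counts alone, the same ratios were 7.05 (5.92 to 8.42) in male and 7.003 (5.97 to 8.24) in female buds.

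novel_56, with at most 6 reads in a library of stage C, had a fitted log2 stage change of -3.94 (SE 0.86), given as a description. Its stage C over stage B was 0.0463 in male (0.00934 to 0.140) and 0.0594 in female buds (0.0214 to 0.133), or 0.0769 and 0.108 in the same buds with total counts alone. In monoecious female buds, with 0 against 10 reads, it was at least 3.56-fold lower at stage C.

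novel_30 had -1.95 (SE 0.53, edgeR adjusted p = 0.0465), and its level was lower at stage C in 4 of 4 bud types. Stage C over stage B was 0.117 in bisexual (0.0753 to 0.178), 0.318 in monoecious female (0.229 to 0.435), 0.649 in male (0.270 to 1.47) and 0.192 in female buds (0.0490 to 0.549). With total counts alone the male ratio changed direction, at a log2 of 0.11 against -0.62 with TMM factors, and the stage change of the row was -1.27 and not called (edgeR adjusted p = 0.145).

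Of the remaining rows, novel_118, novel_40 and novel_106 did not pass. novel_118 had 0.63 (SE 0.61, edgeR adjusted p = 0.499), with stage C over stage B at 0.459 in bisexual (0.380 to 0.556), 1.09 in monoecious female (0.921 to 1.28), 2.75 in male (1.97 to 3.87) and 4.15 in female buds (3.15 to 5.53). Without the bisexual libraries novel_118 passed, at 1.39 (edgeR adjusted p = 0.0400). That fit called 69 of the 248 rows higher and 33 lower, against 31 and 16 with all libraries. For novel_36 the fitted log2 stage change was 1.26 (SE 0.69), given as a description. Its stage C over stage B was 2.76 (0.400 to 118.6) in bisexual, 2.57 (1.10 to 6.68) in monoecious female and 2.24 (0.436 to 14.4) in female buds, and the bisexual and female intervals include 1. novel_40 had 0.28 (SE 0.39, edgeR adjusted p = 0.655). novel_106 could change in male buds alone, where stage C over stage B was 2.88 (1.69 to 5.05), and it was not called (edgeR adjusted p = 0.437).

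The calls of novel_33 and novel_30 changed when libraries were left out. Each was lost without any 1 of the 6 monoecious female, male and female libraries, with edgeR adjusted p of 0.0991 to 0.286 for novel_33 and 0.0824 to 0.181 for novel_30, and with log2 changes of the same sign. Both were kept without either bisexual library and without both. In those fits calls over all rows rose, to 69 to 74 higher and 33 to 51 lower. When 1 library is left out, the other library of its bud type has no stage partner. The fits without either library of a bud type were therefore nearly the same. Calls over all rows also fell without a monoecious female, male or female library, to 0 to 15 higher and 0 to 4 lower. The losses were thus not particular to these rows. With no filter on low rows novel_33 (edgeR adjusted p = 0.0651) and novel_30 (0.0564) were not called. As a comparison of size, novel_39 and novel_41 had the smallest p among the other predicted miRNAs that were higher at stage C, with log2 changes of 3.97 and 5.84, and novel_44 and novel_35 among those that were lower, with -3.38 and -1.91.

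**Figure D4:**
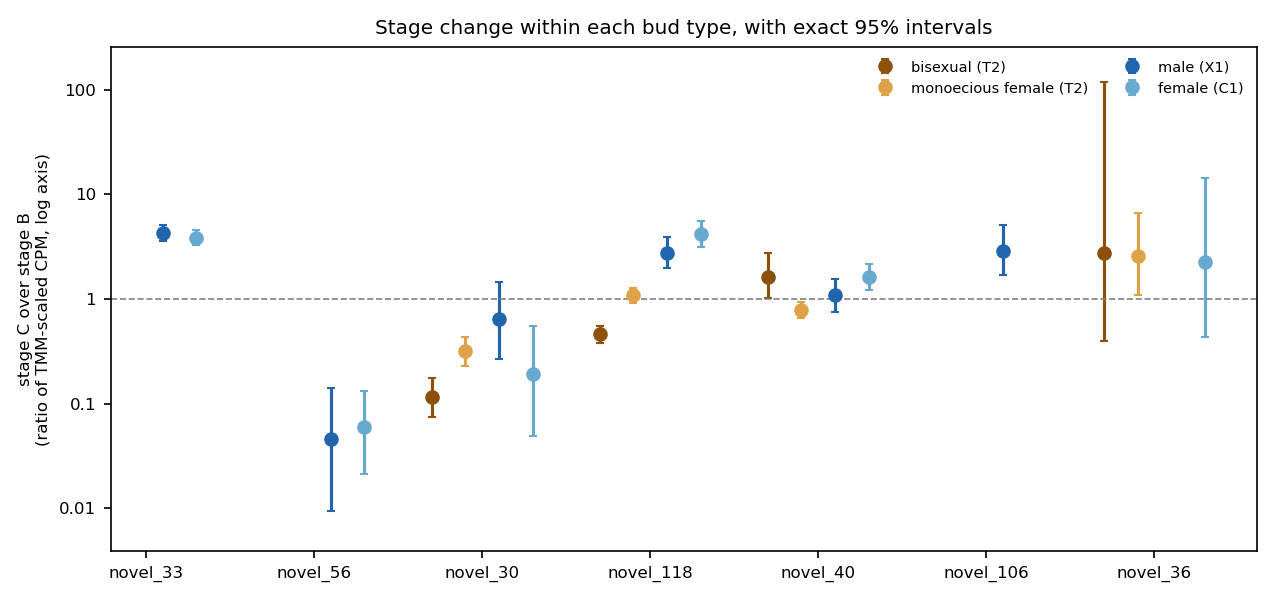
Ratio of stage C to stage B (y axis, log scale, ratio of TMM-scaled CPM) of each of the 7 predicted miRNAs in each bud type, with exact 95% intervals of counting error. Bud types with 0 reads at either stage, or with both stages at or under the floor, are not drawn. novel_118 runs from 0.459 in bisexual to 4.15 in female buds, while novel_33 stands at 4.24 and 3.85 in male and female buds.

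Within strain T2, bisexual buds were compared with monoecious female buds, a contrast that holds the strain and the sexual system fixed. None of the 7 passed, and edgeR called 0 of the 248 rows higher (0%) and 0 lower (0%), with 19 rows at an unadjusted p under 0.05. DESeq2 called 7 higher and 3 lower. It called none of the 5 members to which it gave an adjusted p (0.252 to 0.889), and for novel_106 and novel_36 it gave none. novel_40 had the largest difference for its error, with a log2 change of -1.41 (SE 0.55, unadjusted p = 0.0382, edgeR adjusted p = 0.589). Bisexual buds were below monoecious female buds in it at both stages, at 0.547 times (0.440 to 0.678) at stage C and 0.262 times (0.160 to 0.408) at stage B.

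novel_36 went the same way in value, with a log2 change of -1.06 (SE 0.85, edgeR adjusted p = 0.789) and ratios of 0.479 (0.210 to 1.03) and 0.447 (0.0101 to 3.34) at stages C and B. For novel_30 the stages were opposite, with bisexual over monoecious female at 0.603 (0.381 to 0.944; with total counts alone 0.654, 0.413 to 1.02) at stage C and 1.64 (1.23 to 2.18) at stage B, and 0.10 overall (SE 0.70, edgeR adjusted p = 0.978). novel_118 had 0.949 (0.810 to 1.11) at stage C and 2.25 (1.85 to 2.73) at stage B, and 0.76 overall (SE 0.80, edgeR adjusted p = 0.789). The stage B values of both rest on the shallow library, and without it their log2 changes were -0.80 and -0.72. novel_33, novel_56 and novel_106 had too few reads in T2, at most 10 in a library, for a fold. Other predicted miRNAs with the smallest p were novel_18 and novel_19, at 2.50 and 3.37, and novel_26 and novel_60, at -2.15 and -3.50, and none passed.

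The last comparison asked whether the change between stages differed between monoecious and dioecious buds. The 7 were chosen on levels by strain or sexual system at both stages, and this difference is made of the same levels. Their values in it are therefore a description, given without p. edgeR called 0 of 248 rows with a higher (0%) and 0 with a lower (0%) stage change in monoecious buds, and DESeq2 also called 0, while 8 rows had an unadjusted edgeR p under 0.05. novel_118 had a difference of log2 stage changes of -2.26 (SE 0.79), monoecious minus dioecious buds. Its pooled T2 level at stage C was 0.831 times that at stage B (0.735 to 0.940), against 3.51 times (2.84 to 4.35) in pooled dioecious buds. With total counts alone the pooled T2 ratio crossed 1, at 1.39 times (1.23 to 1.57) against 6.13 times (4.97 to 7.61) in dioecious buds. Neither T2 bud type changed direction between the scalings. The log2 stage change with TMM factors and with total counts was -1.12 and -0.75 in bisexual buds. In monoecious female buds it was 0.12 and 0.90. With TMM factors the bisexual and the monoecious female library were not alike, at 0.459 and 1.09 times, so the pooled T2 value stands for neither.

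For novel_30 the difference was -0.94 (SE 1.05). Its pooled stage C over stage B was 0.222 (0.172 to 0.285) in T2 against 0.385 (0.196 to 0.711) in dioecious buds. For novel_40 it was -0.25 (SE 0.77). Its pooled stage C over stage B was 0.717 (0.615 to 0.836) in T2 against 1.38 (1.11 to 1.72) in dioecious buds. The pooled T2 value lay below both of its bud types, at 1.63 (1.03 to 2.72) in bisexual and 0.782 (0.656 to 0.932) in monoecious female buds. Pooling summed reads over libraries of unlike depth, so the pooled value stands for neither bud type. The direction of the pooled T2 ratio turned with total counts alone, at 1.20 (1.03 to 1.39) against 2.42 (1.94 to 3.02) in dioecious buds. In monoecious female buds alone the log2 stage change of novel_40 was -0.35 with TMM factors and 0.42 with total counts. In bisexual buds it was 0.71 and 1.08, a rise with either scaling. The other 4 had too few reads in T2 or in dioecious buds for this difference. Among other predicted miRNAs the smallest p belonged to novel_114 and novel_3 in the upward direction, at 2.32 and 1.06, and to novel_100 and novel_62 in the downward direction, at -2.96 and -2.93, none of which passed.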

How the data were processed

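The deposited table gave raw read counts per miRNA row, made by the authors, and TPM values by the authors that were each count's share of its column total on a TPM scale, with no length term. Only counts were used further, and 0 value columns were left unmatched to a sample. CASAVA 1.8 and Bowtie are listed in the submitters' processing notes, and neither the genome build nor the mismatch setting was given in the sources used here. The tests used the quasi-likelihood F-test of edgeR 4.0.16 (R 4.3.3) with TMM factors on rows that reached 10 reads in 2 or more libraries, at an adjusted p under 0.05. The stage and T2 contrasts came from an additive model of sex type and stage (3 residual degrees of freedom, common dispersion 0.268). The difference in stage change came from a model with a stage effect per sexual system (2 residual degrees of freedom). SE is the absolute log2 change over the square root of F, and model changes other than by stage are given for rows with at least 20 reads in T2 and, for the difference in stage change, in dioecious libraries. Ratios of libraries have no such minimum. The procedure was run on simulated counts with a common dispersion and with changes larger than those of novel_33 and novel_30. That run therefore does not bear on their calls. Ratios carry exact conditional binomial intervals, and levels exact Poisson intervals.

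The members and lists were chosen with earlier results of these data known. All 7 are named, with the 2 rows of highest correlation for each, and of the other predicted miRNAs the 2 with the smallest p per direction and contrast. The alternatives tried were DESeq2 1.42.0, size factors by RLE, total counts alone, rows with at least 1 read, rows with 50 reads in 2 libraries, and leaving out each library or both bisexual libraries. For the counts of patterns, RLE factors, comparing levels within each stage, and leaving out bisexual libraries were added after the data were seen, as was leaving out both bisexual libraries for the difference in stage change.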

Additional observations from a re-analysis of the deposited data

How the results depend on the processing

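In the stage comparison the 31 rows called higher and 16 called lower became 54 and 4 with total counts alone, 49 higher with DESeq2, and 69 and 33 without both bisexual libraries, and they ranged from 0 to 74 and from 0 to 51 when 1 library was left out. No rows were called without either monoecious female library. Among the 7, novel_30 was not called with total counts alone (-1.27, edgeR adjusted p = 0.145) or with no filter (-1.94, 0.0564), nor was novel_33 with no filter (2.10, 0.0651). The fitted change of novel_56, which met both filters only through stage B, ranged from -4.31 to -3.65 when 1 library was left out. Total counts moved the median stage change of all rows to 0.87, against 0.18 with TMM factors, a shift shared by rows in general. Between bisexual and monoecious female buds, DESeq2 called 7 rows higher and 3 lower, and leaving out 1 library gave 0 to 22 higher and 0 to 37 lower. The log2 changes then ranged from -0.80 to 0.78 for novel_30 and from -0.72 to 1.61 for novel_118, so their direction was not fixed. For the difference in stage change, leaving out 1 library gave 0 to 1 rows called lower, and novel_40 ranged from -0.92 to 0.30. The levels of T2 over dioecious buds kept their direction under both scalings, and the log2 bound of novel_33 at stage B moved to -3.27 with total counts alone, against -3.77. With at least 50 reads in 2 libraries, 16 rows of 166 had T2 above and 7 below at both stages. Without the bisexual stage B library 41 rows had T2 above, and without both bisexual libraries 71 were above and 23 below. The causes of these shifts were not tested. Without both bisexual libraries the difference in stage change was left with 1 residual degree of freedom. novel_118 then had -1.80, and the contrast of bisexual and monoecious female buds has no value. No paired analysis was possible because each group has 1 library and so no replicate number to pair, and the sex type term already compares stages within each bud type. Depth limits novel_36 and novel_106, and all rows in the shallow bisexual library of stage B.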

Other observations

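Some conserved rows had all T2 libraries on one side of all dioecious libraries, as novel_33, novel_30 and novel_118 did, and those below were chosen after their values were seen. mdm-miR396a and vvi-miR396a, of a family that acts on growth-regulating factors, were higher in every T2 library than in every dioecious library, at 308 to 760.3 CPM against 171 to 213 CPM for mdm-miR396a and at 1010 to 2245 CPM against 548 to 958 CPM for vvi-miR396a. In the opposite direction, ppe-miR399a stood at 6.13 to 29.1 CPM in T2 against 52.5 to 126 CPM in dioecious libraries. The rows osa-miR164e and zma-miR164h-5p, of a family that acts on NAC genes of organ boundaries, also had all T2 below all dioecious libraries, but the nearest values were close, at 27.6 against 28.8 CPM for osa-miR164e and 46.3 against 47.4 CPM for zma-miR164h-5p. With total counts alone neither miR164 row kept all T2 below all dioecious libraries, while the miR396a rows and ppe-miR399a kept their order.

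Of the other predicted miRNAs, novel_100 and novel_14 were above and novel_46 below at both stages in T2. novel_100 had 305.6 and 407 CPM in bisexual and monoecious female buds at stage C, against 146 and 191 CPM in male and female buds. At stage B it had 49.1 and 48.0 CPM in the same T2 bud types, from 8 and 28 reads, against 3.00 and 2.51 CPM in male and female buds, from 2 reads each. novel_46 had 39.9 and 43.3 CPM at stage C in the T2 bud types against 61.1 and 67.7 CPM in the dioecious ones, and 73.6 and 46.3 CPM at stage B against 82.6 and 127 CPM. With RLE factors or total counts alone novel_46 was not below at both stages.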
